A study of Mus musculus and Homo sapiens with 27 samples.

Results

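Splenic B cells of adult Balb-c mice that lack both copies of Irf4 were cultured with lipopolysaccharide (LPS), and their RNA at 96 h was compared here with their RNA at 24 and 48 h. The arrays were chosen by title: 3 arrays of IRF4 KO cells treated with LPS for 96 h (late) and 6 of IRF4 KO cells treated for 24 or 48 h (early, 3 at each time), so 9 of the 27 samples of the series. The labels give the KO genotype as homozygous (-/-) and the comparison genotype, Het, as heterozygous (-/+), so no group carried 2 intact copies of Irf4. All these cells were grown in RPMI with 10% FBS, and the labels give the LPS dose as 20-25 mg/ml. Het arrays (4 early, 4 late) and 3 KO arrays taken before LPS (0 h) were used beside them. Of the 27 samples, 23 are mouse arrays and the others, from a human cell line, were not analysed here.

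Each array set B-cell RNA, labelled with Cy5, against one common reference, a Cy3-labelled mixture of RNA from mouse B-cell, T-cell and macrophage lines. A level is the log2 ratio of B cells over that pool, so 1 unit is a doubling, and a difference of 2 levels is a log2 fold change. Levels of different genes cannot be ranked against each other, since the pool differs from gene to gene. The series' design text speaks of biological repeats at each time, but no label names the animals or cultures, so p-values measure the spread between these arrays. Of 12292 features, 559 carried 1 gene symbol, and these gave the 331 genes analysed; Irf4 itself was not among them, so the deletion was not checked on the arrays. The B-cell receptor chain gene Cd79b lay above the pool on all 23 mouse arrays.

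The genotype of 3 early KO arrays is in conflict: their titles say KO and their channel fields say Het (24 h replicate 3 and 48 h replicates 1 and 3). They were kept in the KO group by title, and each main count was repeated without them. Jchain, the antibody joining chain gene, read -2.98, -4.0 and -3.92 on these 3 arrays. On the other early KO arrays it read -2.59, -4.98 and -3.87, and on the 4 early Het arrays -2.02, -0.56, -0.35 and 0.89. These levels are given as a description and moved no array.

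LPS engages Toll-like receptor 4 and drives splenic B cells first into growth and division and then, in some of the cells, into antibody-secreting plasmablasts. IRF4 is a transcription factor that plasmablast formation requires, acting with Blimp-1 (Prdm1) and XBP1. Growth in activated B cells is known to depend on MYC, which binds E-box motifs and raises genes of ribosome assembly, glycolysis and nucleotide synthesis, while E2F factors drive genes of DNA replication. The comparison asks what KO cells did late in the culture, a time at which B cells with IRF4 are known to form plasmablasts.

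Late KO cells had lower levels than early KO cells of 7 of 15 measured MYC and biosynthesis genes and of 7 of 14 genes of DNA replication and the cell cycle, and no gene passed the test as higher. In limma's moderated test over all 331 genes, with Benjamini-Hochberg adjustment, 35 genes fell (10.6%) and 0 rose at an adjusted p under 0.05. At an unadjusted p under 0.05 there were 81 lower and 7 higher genes. The 35 genes fell by 2.04-fold to 4.53-fold, with a median difference of -1.64. The median of all 331 genes was itself below 0, at -0.48, and 240 of the 331 had a negative difference. Each of the 35 differences lay below that median, but the 35 were picked for large falls, so this is no test of the scale of the arrays.

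The scale of the arrays touches this count. After each array was centred on the median of its features, the named features had medians from -0.41 to -0.31 on the late arrays and from -0.20 to 0.54 on the early ones. When arrays were centred on their named features instead, the median of all genes became 0.14, and 25 genes were lower and 18 higher. All 25 were among the 35. The 10 that lost their call were Akap12, Aprt, Atf4, Ercc1, H2ax, Pa2g4, Ripk3, Slc7a5, Sod1 and Tk1. The split was thus 58.1% lower in that scaling and 100% lower in the main one.

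The calls rested on few arrays. Without the 3 conflicting arrays, 0 of 331 genes passed limma's test, with 50 at an unadjusted p under 0.05, and the same 35 genes had a median difference of -1.51, all below 0, with adjusted p from 0.103 to 0.332. With only the KO LPS arrays fitted and the conflicting ones left out, 3 early against 3 late, 0 genes passed as well, with adjusted p from 0.0926 to 0.329 for the 35. Without KO 96 h replicate 1 only 1 of the 35 kept its call, and without replicate 2 only 3 did; all 35 differences stayed below 0 in each of these fits. Without KO 24 h replicate 1, 55 genes passed, all 35 among them.

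Among growth genes, Nme1, a nucleoside diphosphate kinase gene long used as a MYC target, fell most clearly. Its level was 1.04, 1.38 and 0.91 at 24 h, 0.49, 0.25 and 0.59 at 48 h, and -1.32, -1.48 and -1.15 at 96 h. All 3 late arrays lay below all 6 early ones and below the KO 0 h mean of -0.03 ± 0.49 (SD, n = 3). The difference was -2.09 ± 0.36 (SE), a 4.26-fold fall (limma adjusted p = 0.00439). The share of all 331 genes with every late array below every early one was 29.3%, so such a separation was common on these arrays.

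Ldha, which encodes the enzyme that turns pyruvate into lactate, had its highest mean at 48 h. It read -1.45, -0.76 and -0.91 at 24 h, -0.27, -0.20 and -0.53 at 48 h, and -2.65, -2.55 and -2.31 at 96 h. The groups did not overlap, and the 0 h mean was -1.97 ± 0.38 (SD, n = 3). The fall was 3.53-fold (-1.82 ± 0.33 SE, limma adjusted p = 0.00439).

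In the fixed list of MYC and biosynthesis genes, 7 of 15 measured members fell, all 15 differences were below 0, and the list's median was -1.36 against -0.48 for all genes. Besides Nme1 and Ldha, the nucleolar genes Npm1 (-1.68 ± 0.39 SE) and Ncl (-1.74 ± 0.42 SE) fell, with limma adjusted p of 0.0120 and 0.0150. Npm1 read -0.44 to 0.93 on the early arrays and -1.62 to -1.27 on the late ones, without overlap. The glycolytic genes Gapdh (-1.49) and Pkm (-2.0) and the mitochondrial aspartate aminotransferase gene Got2 (-1.36) fell too. Pkm was the exception in its spread: KO 24 h replicate 1, at -3.48, lay below all 3 late arrays (-3.16, -2.94 and -2.76). Myc itself did not pass (-0.81, limma adjusted p = 0.382), with late levels of -1.83, -1.74 and -1.34. KO 24 h replicate 1 read -2.99, and the other early arrays ran from -0.73 to 0.22, above all late ones. Myc passed as lower in 5 of 28 other fits. It differed by -1.23 within the highest range of the submitters' database numbers (limma adjusted p = 0.0450). Centred on named features it differed by -0.19 (limma adjusted p = 0.832). Averaged over the 15 genes, the array levels ran from -0.88 to 0.12 early and from -1.65 to -1.32 late. Without the conflicting arrays 0 of the 15 passed, and their median was -1.22.

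**Figure D1:**
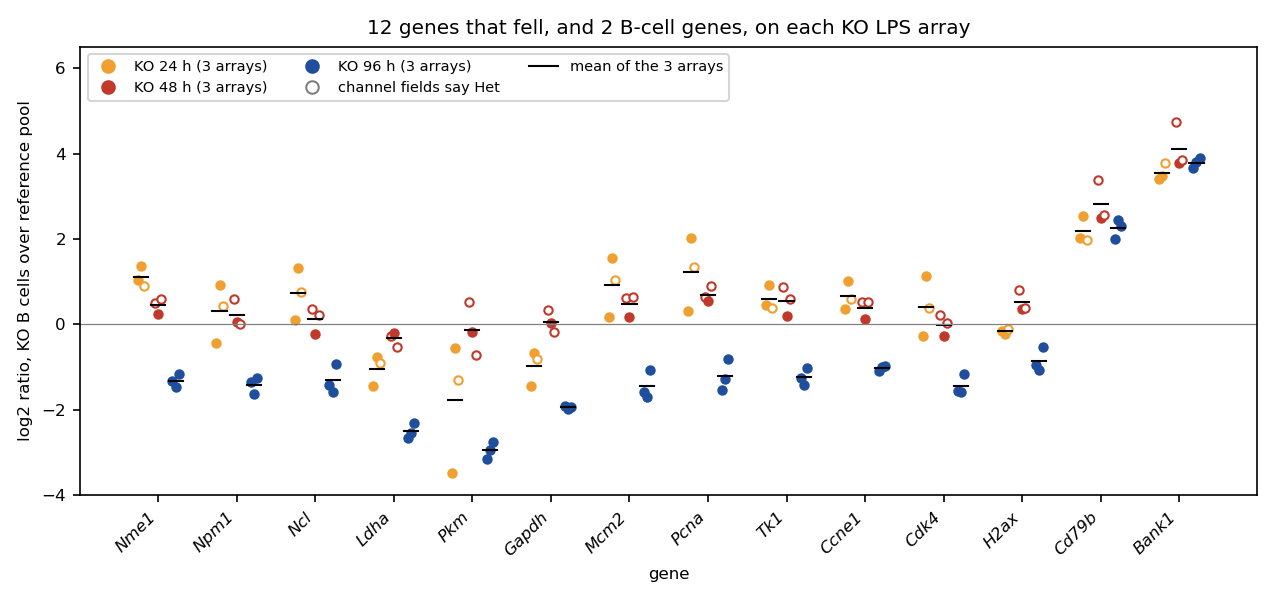
Log2 ratio of KO B cells over the reference pool for 14 genes on the 9 KO LPS arrays; each point is 1 array, each bar the mean of 3, and open points mark the 3 arrays whose channel fields say Het. The first 12 genes fell, with the late arrays lowest except for Pkm, where 1 array at 24 h reads -3.48; Cd79b and Bank1 overlap between times.

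The promoters of these genes were searched for the E-box CACGTG (a palindrome, so the same on both strands) and for the E2F motifs TTTCCCGC, TTTCGCGC, TTTGCCGC and TTTGGCGC on both strands, none of which overlaps the E-box. The windows, 300 bases that end just past a gene's start, are RefSeq's on GRCm38.p6, and 30 of the 35 fallen genes had one. The E-box occurred in 8 of these 30 genes (26.7%), in 15% of the 266 measured genes with a window, and in 8.09% of the 27025 genes of the table. An E2F motif occurred in 1 of the 30 (3.33%), Ncl, in 5.64% of the measured genes and in 2.60% of the table. Some genes had more than 1 window, and a gene counted if any of its windows held the motif. Ldha had a further window, at chr7:46846832-46847131, that held neither motif. A match is a description of the letters in these windows, and the motifs were chosen with the results known. The windows of 4 fallen genes that hold E-boxes, with roles in growth, the cell cycle or DNA repair, are shown, with the E-boxes in capitals, beside that of Pcna, which holds none of these letters. They are Nme1 at chr11:93968223-93968522 (minus strand, 1 E-box), Ldha at chr7:46845554-46845853 (plus strand, 2 E-boxes), Cdk4 at chr10:127063285-127063584 (plus strand, 4 E-boxes), Apex1 at chr14:50924699-50924998 (plus strand, 3 E-boxes) and Pcna at chr2:132253131-132253430 (minus strand).
Nme1: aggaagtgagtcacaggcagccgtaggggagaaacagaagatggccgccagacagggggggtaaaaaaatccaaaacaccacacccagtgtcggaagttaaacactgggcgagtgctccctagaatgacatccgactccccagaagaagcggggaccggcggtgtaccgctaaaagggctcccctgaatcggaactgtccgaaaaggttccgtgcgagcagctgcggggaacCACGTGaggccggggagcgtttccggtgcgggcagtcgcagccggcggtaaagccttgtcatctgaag
Ldha: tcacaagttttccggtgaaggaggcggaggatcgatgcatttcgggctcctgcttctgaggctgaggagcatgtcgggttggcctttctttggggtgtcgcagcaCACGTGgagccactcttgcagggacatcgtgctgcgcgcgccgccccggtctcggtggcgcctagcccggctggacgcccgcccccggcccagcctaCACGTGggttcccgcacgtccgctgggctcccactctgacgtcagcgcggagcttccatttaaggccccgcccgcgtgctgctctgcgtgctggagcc
Cdk4: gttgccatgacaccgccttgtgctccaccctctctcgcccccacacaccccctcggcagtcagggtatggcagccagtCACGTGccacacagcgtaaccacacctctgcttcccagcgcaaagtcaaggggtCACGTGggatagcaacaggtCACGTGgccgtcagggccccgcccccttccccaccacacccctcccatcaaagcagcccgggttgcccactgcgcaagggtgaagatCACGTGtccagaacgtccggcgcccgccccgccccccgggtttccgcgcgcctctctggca
Apex1: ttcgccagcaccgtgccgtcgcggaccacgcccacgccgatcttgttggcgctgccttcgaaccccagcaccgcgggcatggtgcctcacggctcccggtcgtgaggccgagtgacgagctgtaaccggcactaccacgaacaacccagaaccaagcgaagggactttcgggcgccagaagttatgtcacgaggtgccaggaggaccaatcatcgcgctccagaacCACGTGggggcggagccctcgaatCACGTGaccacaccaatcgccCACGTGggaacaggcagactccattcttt
Pcna: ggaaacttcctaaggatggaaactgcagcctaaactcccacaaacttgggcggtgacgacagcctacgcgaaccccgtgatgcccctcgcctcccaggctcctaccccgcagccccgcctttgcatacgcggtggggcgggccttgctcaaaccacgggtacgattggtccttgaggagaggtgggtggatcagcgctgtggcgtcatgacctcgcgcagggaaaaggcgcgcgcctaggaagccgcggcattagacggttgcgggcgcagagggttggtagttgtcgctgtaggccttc

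Genes of DNA replication and the cell cycle formed the list with the lowest median, -1.64 over 14 measured members, of which 12 had a negative difference and 7 fell. Pcna, the sliding clamp of the replication fork, had the greatest fall of the 35 genes, 4.53-fold (-2.18 ± 0.45 SE, limma adjusted p = 0.00958). It read 0.31, 2.02 and 1.34 at 24 h, 0.64, 0.54 and 0.90 at 48 h, and -1.55, -1.29 and -0.82 at 96 h. No late array reached the lowest early one.

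Mcm2, a subunit of the replicative helicase, read 0.16, 1.56 and 1.03 at 24 h, 0.62, 0.17 and 0.64 at 48 h, and -1.58, -1.71 and -1.07 at 96 h. It fell 4.44-fold (-2.15 ± 0.44 SE, limma adjusted p = 0.00958). Its 0 h mean was 0.21 ± 0.19 (SD, n = 3), so late KO cells lay below the cells before LPS. In 34 of the 35 genes the KO 96 h mean was below the KO 0 h mean, but the 35 were picked for low late levels. The genes as a whole also lay lower late. The median over all 331 genes was 0.524, 0.175 and -0.075 on the KO 0 h arrays, and -0.372, -0.396 and -0.318 on the late ones. KO 0 h replicates 1 and 2 were in lower ranges of the submitters' database number than the late arrays.

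The thymidine kinase gene Tk1 (-1.81), the G1 cyclin gene Ccne1 (-1.55), the kinase gene Cdk4 (-1.64), the tubulin gene Tubb5 (-1.87) and the histone variant gene H2ax (-1.03) also fell, with limma adjusted p from 0.0109 to 0.0362. Each had all late arrays below all early ones. Ccne1 was the tightest late, at -1.09, -1.01 and -0.97. H2ax read unevenly over the early times, at -0.23 to -0.10 at 24 h and 0.35 to 0.80 at 48 h, before -1.07 to -0.53 late.

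Other members did not pass in the main fit: Plk1 (-1.99), Fen1 (-1.73), Brca1 (-1.63, limma adjusted p = 0.0533), Hmgb2 (-1.59) and Rrm2 (-1.12). In the 28 other fits Fen1, Brca1 and Hmgb2 passed in 7 each, Plk1 in 6 and Rrm2 in 0. Hmgb2 read -2.47 on KO 24 h replicate 1, 0.32 to 1.04 on the other early arrays and -1.60 to -1.09 on the late ones. Mki67, the proliferation marker Ki-67, differed by 0.02 ± 0.59 (SE). Its late levels were 0.89, -1.08 and -0.87, and its early ones ran from -1.19 to 0.10. Ccnd1 differed by 1.25 (limma adjusted p = 0.547). Averaged over the 14 genes, array levels ran from -0.41 to 0.44 early and from -1.44 to -1.22 late. Without the conflicting arrays 0 of the 14 passed and the median was -1.53; without KO 96 h replicate 1, and without replicate 2, 0 passed as well.

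**Figure D2:**
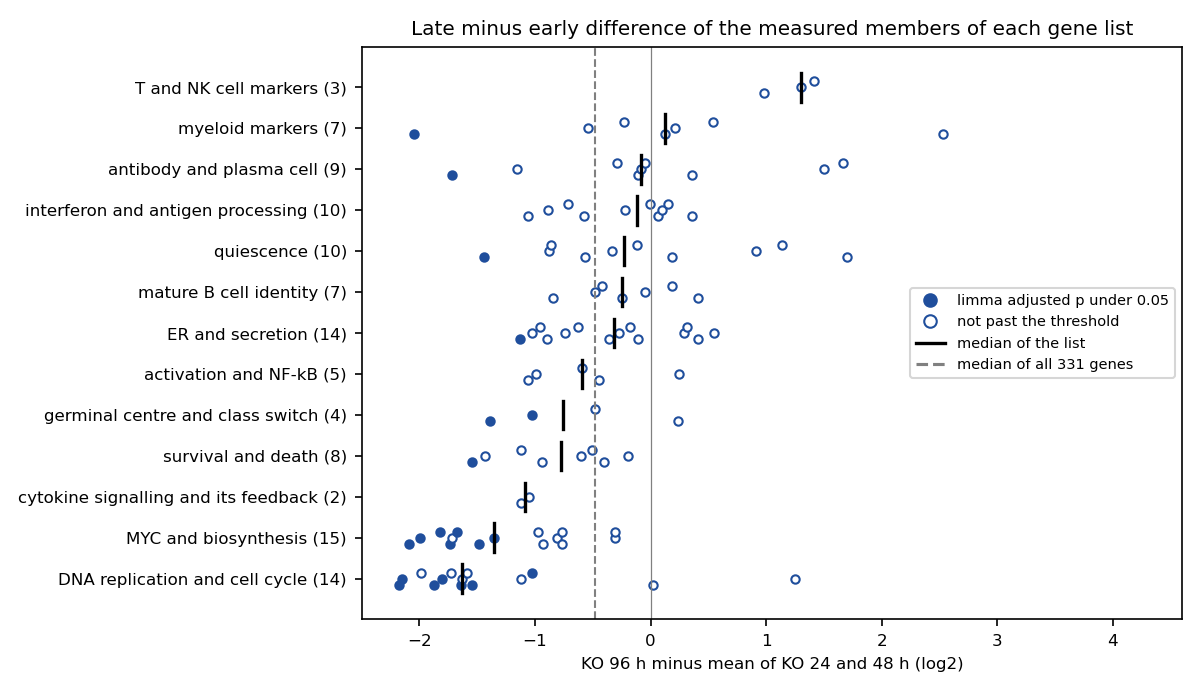
Late minus early difference (log2, horizontal) of each measured member of the 13 lists with members, with the number measured in brackets; filled points passed limma's test, black bars are list medians and the dashed line is the median of all 331 genes. The replication and MYC lists lie lowest, at -1.64 and -1.36, and no point to the right of 0 is filled.

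A further 15 of the 35 genes stood on no list. Among the largest were Ahcy, which recycles S-adenosylhomocysteine (-2.04 ± 0.39 SE), the tubulin gene Tuba4a (-1.93), Alpl, the tissue-nonspecific alkaline phosphatase (-1.83), and the cyclophilin gene Ppia (-1.67). Ahcy read 0.12 to 0.87 on the early arrays and -1.86 to -1.46 on the late ones. Alpl showed the uneven early level again: KO 24 h replicate 1 read -2.34 and replicate 2 read 0.67, above late levels of -2.77, -2.73 and -2.65. The others included the RNA-binding protein gene Hnrnpd (-1.66), the proteasome subunit gene Psmd1 (-1.66), the initiation factor subunit gene Eif2s2 (-1.45), the superoxide dismutase gene Sod1 (-1.51) and the repair nuclease subunit gene Ercc1 (-1.14). Genes such as Ppia, Gapdh, Npm1 and the tubulins have near-identical copies or pseudogenes, so the features could carry signal of more than 1 gene. In the survival and death list all 8 members had a negative difference, beside 240 of 331 of all genes, with a median of -0.77. Centred on named features, 4 of the 8 turned positive, Mcl1 (0.22), Bcl2l11 (0.12), Casp4 (0.43) and Birc3 (0.02). The 1 that fell was Cycs, which encodes cytochrome c (-1.55, limma adjusted p = 0.0121). The germinal centre and class switch list had 2 of 4 members lower, H2ax and the base-excision repair nuclease gene Apex1 (-1.39, limma adjusted p = 0.0117).

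S100a6, a calcium-binding protein gene listed here among myeloid markers, read highest at 48 h. It read 0.69, 0.32 and 0.05 at 24 h, 2.41, 1.5 and 1.53 at 48 h, and -0.73, -1.28 and -0.87 at 96 h. The groups did not overlap, and it fell 4.12-fold (limma adjusted p = 0.0109). The other 6 measured myeloid genes did not pass, and the summed level of the 7 ran from 2.39 to 6.45 early and from 4.51 to 5.95 late.

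Of the 9 measured plasma cell genes, 1 fell and 0 rose in late KO cells. The difference was negative in 6, and the median was -0.08, beside 0.79 for the same genes in Het cells. The one that fell, Slc7a5, encodes the light chain of an amino acid transporter (-1.72 ± 0.48 SE, limma adjusted p = 0.0288). Centred on named features it did not pass (-1.09, limma adjusted p = 0.0515), and it passed in 10 of 28 other fits. It read -3.09, -0.44 and -0.60 at 24 h, -1.36, -1.53 and -0.78 at 48 h, and -2.82, -2.97 and -3.25 at 96 h, so KO 24 h replicate 1 overlapped the late arrays. Its partner chain Slc3a2 differed by -1.16 with a limma adjusted p of 0.0534. Slc7a5 also fell in Het cells, as all 35 genes did, with levels of -0.59 to 0.42 early and -2.64 to -2.03 late.

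Jchain, whose protein joins IgM and IgA polymers, stayed far below the pool: -2.59, -4.98 and -2.98 at 24 h, -4.0, -3.87 and -3.92 at 48 h, and -3.53, -2.95 and -3.60 at 96 h. The late levels lay within the early ones, with a difference of 0.36 ± 1.09 (SE) and a limma adjusted p of 0.904. In Het cells the same difference was 4.56 (limma adjusted p = 0.00417), and the 4 late Het arrays read 3.78 to 4.18. The difference between the genotypes, -4.20 with a 95% interval from -7.43 to -0.97, had an unadjusted limma p of 0.014 and did not pass adjustment (adjusted p = 0.754).

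Xbp1, the secretory pathway regulator, differed by -0.05 ± 0.43 (SE) in KO cells, with late levels of -0.85, -0.56 and -0.21. Mzb1, an ER chaperone gene of marginal zone and B1 cells and plasma cells, differed by -0.08 ± 1.48 (SE), and its late levels were -0.11, -0.40 and -0.21. Prdm1, which encodes Blimp-1, differed by 1.66 ± 1.52 (SE, limma adjusted p = 0.499). Its late levels were 0.04, 0.42 and 0.34. Of the early arrays only KO 24 h replicate 1, at 2.37, read above these, and the other 5 ran from -7.07 to -0.01. The difference was above 0 in all 28 other fits and passed in 1, within the highest range of database numbers (0.84, limma adjusted p = 0.0261). Sdc1, the plasma cell surface proteoglycan, differed by 1.5 ± 1.18 (SE, limma adjusted p = 0.428), with late levels of -0.72, -0.92 and -1.15. Again only KO 24 h replicate 1, at -0.36, reached these, and the other 5 early arrays ran from -5.93 to -1.47. The difference was above 0 in all 28 other fits and passed in 0 of them. The 95% intervals were wide for these genes, from -3.19 to 3.03 for Mzb1 and from -1.53 to 4.86 for Prdm1.

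In the ER and secretion list 10 of 14 members had a negative difference, the median was -0.32, and 1 fell, the stress response factor gene Atf4 (-1.13, limma adjusted p = 0.0456). Centred on named features it did not pass (-0.51, limma adjusted p = 0.0616), and it passed in 10 of 28 other fits. Atf4 read -0.15 to 0.32 early and -1.17 to -1.0 late. The translocon genes Sec61g (-1.02) and Sec61a1 (-0.95) and the disulfide isomerase gene Pdia3 (-0.90) did not pass.

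Genes of mature B cells did not pass in either direction: 0 of 7 measured were called, 5 differences were below 0, and the median was -0.25. Averaged over the 7 genes, the late arrays ran from 1.08 to 1.17. KO 24 h replicate 1 read 0.25, and the other early arrays ran from 1.21 to 1.96, above all late ones. Late means were below the 48 h means in all 7 genes (267 of 331 of all genes) and below the 24 h means in 2 (208 of 331). Cd79b read 1.97 to 3.37 on the early arrays and 1.99, 2.46 and 2.30 on the late ones. Bank1, a B-cell scaffold gene, read 3.40 to 4.74 early and 3.67 to 3.89 late, a difference of -0.05. Centred on named features, Bank1 was instead higher by 0.57 (limma adjusted p = 0.0420), and H2-DMa, a peptide-loading gene of MHC class II, was higher by 1.03 (limma adjusted p = 0.00408) where it differed by 0.41 in the main fit.

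Of 10 quiescence genes 1 was called, 6 differences were below 0, and the median was -0.23. That gene was Akap12, a kinase anchoring protein gene, which fell (-1.44 ± 0.37 SE, limma adjusted p = 0.0178) from -1.01 to 0.10 early to -2.45 to -1.58 late. Centred on named features it did not pass (-0.82, limma adjusted p = 0.119). Tsc22d3, which is induced by glucocorticoids and high in resting lymphocytes, stood at 2.79 ± 0.77 (SD, n = 3) before LPS in KO cells and at -0.63 ± 0.22 (SD, n = 3) at 96 h. Its late minus early difference was -0.11 ± 0.41 (SE). The antiproliferative gene Btg1 read -0.09, 0.83 and 0.31 at 24 h, 2.08, 1.6 and 1.42 at 48 h, and 2.00, 1.87 and 1.93 at 96 h. Its difference of 0.91 did not pass (limma adjusted p = 0.117), and its late levels overlapped those at 48 h. It passed as higher in 9 of 28 other fits, among them the one centred on named features (1.53, limma adjusted p = 4.9e-05) and the one within the highest range of database numbers (1.03, limma adjusted p = 0.0181).

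No gene passed as higher in the main fit, and the nearest was Slpi, which encodes a secreted inhibitor of leukocyte proteases. It read -2.34, -3.40 and -0.97 at 24 h, -5.37, -1.41 and -1.50 at 48 h, and -0.77, 0.72 and 0.15 at 96 h. All 3 late arrays lay above all 6 early ones, as in 2.11% of the 331 genes, and the 0 h mean was -4.21 ± 1.10 (SD, n = 3). The difference was 2.53 ± 0.83 (SE), with an adjusted p of 0.0568 in limma. It passed in 8 of 28 other fits, among them the one centred on named features (3.15, limma adjusted p = 0.0290). It was 2.17 without the conflicting arrays (limma adjusted p = 0.211) and 1.24 within the highest range of database numbers (limma adjusted p = 0.148). The next genes by p were Krr1 (0.93), Btg1 (0.91), Lrmp (1.79), Rbm12 (2.69), Nfyb (1.11), Ppp2cb (1.24) and Abcb1b (0.99), with limma adjusted p from 0.116 to 0.225. Of these, Krr1 and Abcb1b, a small-subunit processome gene and a drug efflux pump gene, also had all late arrays above the early ones. In the 28 other fits Krr1 passed as higher in 6, Lrmp, Rbm12 and Nfyb in 5 each, and Ppp2cb and Abcb1b in 2 each. Within the highest range Krr1, Lrmp, Rbm12 and Nfyb passed, with limma adjusted p from 0.00869 to 0.0346. Ppp2cb and Abcb1b did not pass there, and none of these genes passed without the conflicting arrays.

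Markers of T and NK cells had positive differences in all 3 measured genes, none past the test in the main fit. Cd3g differed by 1.30, Tcra by 1.41 and Gzma by 0.99, with a median of 1.30. In the 28 other fits Tcra passed as higher in 4, and Cd3g and Gzma passed in 0. Within the highest range of database numbers Tcra differed by 2.67 (limma adjusted p = 0.0211). The summed level of the 3 genes is given next. Their summed level ran from -10.63 to 3.74 on the early arrays and from -3.71 to 0.21 on the late ones. The highest early sum was that of KO 24 h replicate 1 alone; on the other 5 early arrays the sum ran from -10.63 to -4.22, below all 3 late arrays. A log ratio has no zero, so it was not possible to say which markers were absent, and no erythroid or stromal marker was measured. The part of other cells in the results was not tested, and in bulk RNA fewer cells of a type and less RNA per cell cannot be told apart.

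The other fixed lists held no called gene. Activation and NF-kB genes had 4 of 5 differences below 0 (median -0.59), led by the immediate early gene Nr4a1 (-1.06, limma adjusted p = 0.0692). Interferon and antigen processing genes had 6 of 10 below 0 (median -0.12), with the peptide transporter gene Tap1 at -1.06. The cytokine signalling list had 2 measured members: the kinase gene Pim1 (-1.12) and Socs2 (-1.05).

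Set beside the Het cells, the falls were shared. Of the 35 genes, all 35 also fell in Het cells, with a median of -2.06, where 89 of 331 genes fell (26.9%) and 11 rose (3.32%), 30.2% in all. All late Het arrays lay in the highest range of database numbers, but of the early Het arrays only 48 h replicate 2 did. Named features had medians of 0.98, 0.37, 0.62 and 0.30 on the early Het arrays and from -0.63 to 0.06 on the late ones. The part of range and scale in the Het changes was not tested. The 2 genotypes were each compared with their own early arrays. Of the 35 genes, 0 passed limma's test of the difference between the genotypes, and 1, Akap12, passed before adjustment only (difference 1.12, 95% interval from 0.01 to 2.23). Nme1 fell by 2.45 in Het cells, and its genotype difference was 0.36 with a 95% interval from -0.71 to 1.43. For Ldha the difference was 0.07, from -0.90 to 1.04, and for Pcna 0.65, from -0.70 to 2.0. No interval of the 35 lay within 1 log2 unit either side of 0, so none of them was shown to change alike to within 2-fold.

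**Figure D3:**
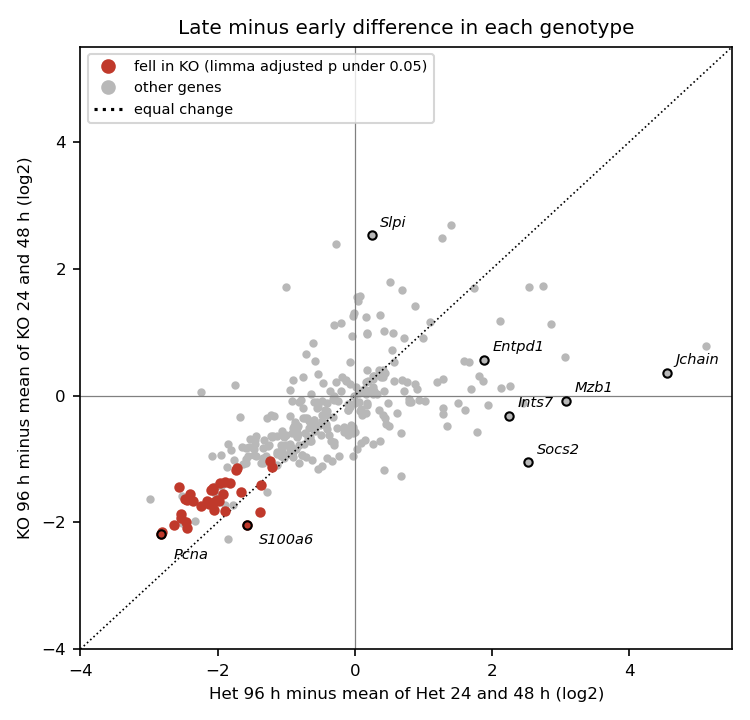
Late minus early difference (log2) of the 331 genes in Het cells (horizontal) and in KO cells (vertical), each against its own early arrays; red points are the 35 genes that fell in KO and the dotted line marks equal change. All red points lie below 0 on both axes, and Socs2 and Jchain, outlined, lie at 2.53 and 4.56 in Het cells but at -1.05 and 0.36 in KO cells.

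Of the 331 genes, 1 (0.302%) passed the test of the genotype difference: Socs2, a feedback inhibitor of cytokine receptor signalling through STAT5, measured by 1 feature. In KO cells it read 0.77, -0.32 and -0.74 at 24 h, -0.39, -0.60 and -0.57 at 48 h, and -1.45, -1.35 and -1.29 at 96 h. The late arrays lay below all early ones, and the KO difference of -1.05 ± 0.39 (SE) did not pass by itself (limma adjusted p = 0.0907). In Het cells Socs2 rose by 2.53 (limma adjusted p = 0.000272), to late levels of 2.02, 2.30, 2.92 and 3.13. The KO minus Het difference was -3.58, with a 95% interval from -4.74 to -2.43 (limma adjusted p = 0.00133). It passed in each of 32 alternative fits, from -4.93 to -3.26, those without the conflicting arrays included. The difference thus combines the rise in Het cells with the low late level in KO cells.

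The other 10 genes that rose in Het cells did not pass in KO cells. Of all 11, 7 had a positive difference in KO cells, beside 91 of all 331 genes. Their median was 0.23 in KO cells and 2.25 in Het cells. The 11 were picked for their rise in Het cells, so a higher median there was set by the choice. Ints7, an Integrator complex subunit gene, differed by -0.32 in KO cells and rose by 2.25 in Het cells, and its genotype difference of -2.56 narrowly missed (limma adjusted p = 0.0551). Entpd1, the ectonucleotidase CD39, differed by 0.57 in KO cells with all late arrays above the early ones. Trp53inp1, a p53-induced stress protein gene, differed by 1.13 in KO cells, with overlap. Its late KO mean was 2.23 above the 24 h mean, where KO 24 h replicate 1 read -4.70, and 0.04 above the 48 h mean. Btg1 differed by nearly the same amount in both genotypes, 0.91 in KO and 0.99 in Het cells, with a genotype difference of -0.08 and a 95% interval from -1.16 to 1.0.

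**Figure D4:**
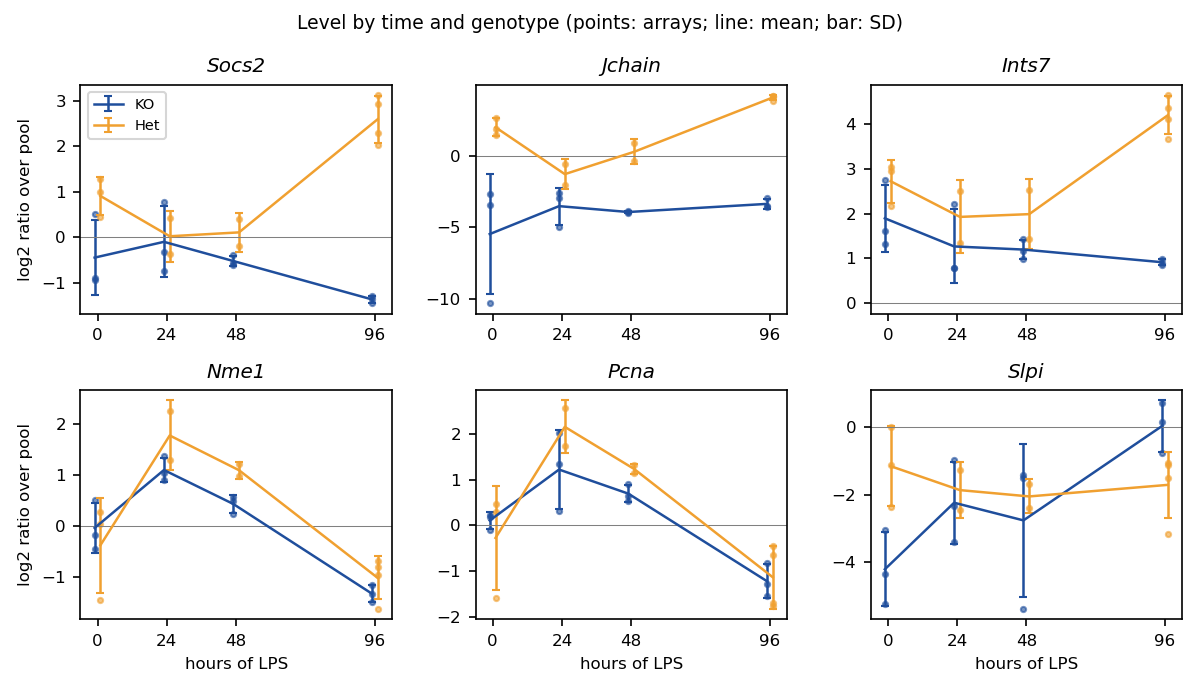
Log2 ratio over the pool for 6 genes at 0, 24, 48 and 96 h of LPS in KO (blue) and Het (orange) cells; points are arrays, lines join means and bars are SD (2 to 4 arrays a point). Nme1 and Pcna peak at 24 h and end lowest in both genotypes, while Socs2, Jchain and Ints7 read highest at 96 h in Het cells and Slpi reads highest in late KO cells.

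Within the early period KO cells showed no called difference: at 48 h against 24 h, limma called 0 genes, with 28 at an unadjusted p under 0.05. Of the 35 late-lower genes, 24 had a lower mean at 48 h than at 24 h, where the median difference of all genes was 0.19. All 35 were lower at 96 h than at either time alone. Of all 331 genes, 208 were lower at 96 h than at 24 h, and 267 were lower than at 48 h. The 35 were picked on the pooled difference, so lying below both times was largely set by that choice. Against 24 h alone 20 of the 35 passed, and against 48 h alone 15 did.

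The arrays also differ by the submitters' database number. All 3 late arrays and 3 early ones (24 h replicate 3, 48 h replicates 2 and 3) fell in the highest range of numbers, and the other 3 early arrays in lower ranges. Fitted within the highest range, 83 genes passed, 73 lower and 10 higher, and all 35 were among the 73. Of its 3 early KO arrays, 2 (24 h replicate 3 and 48 h replicate 3) are ones with conflicting genotype fields. With the range as a factor 16 of the 35 passed. With KO 96 h replicate 3 as the only late array, assumed to vary like the other groups, all 35 differences were below 0 and 0 passed; a late group of 1 array says little about the calls.

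**Figure D5:**
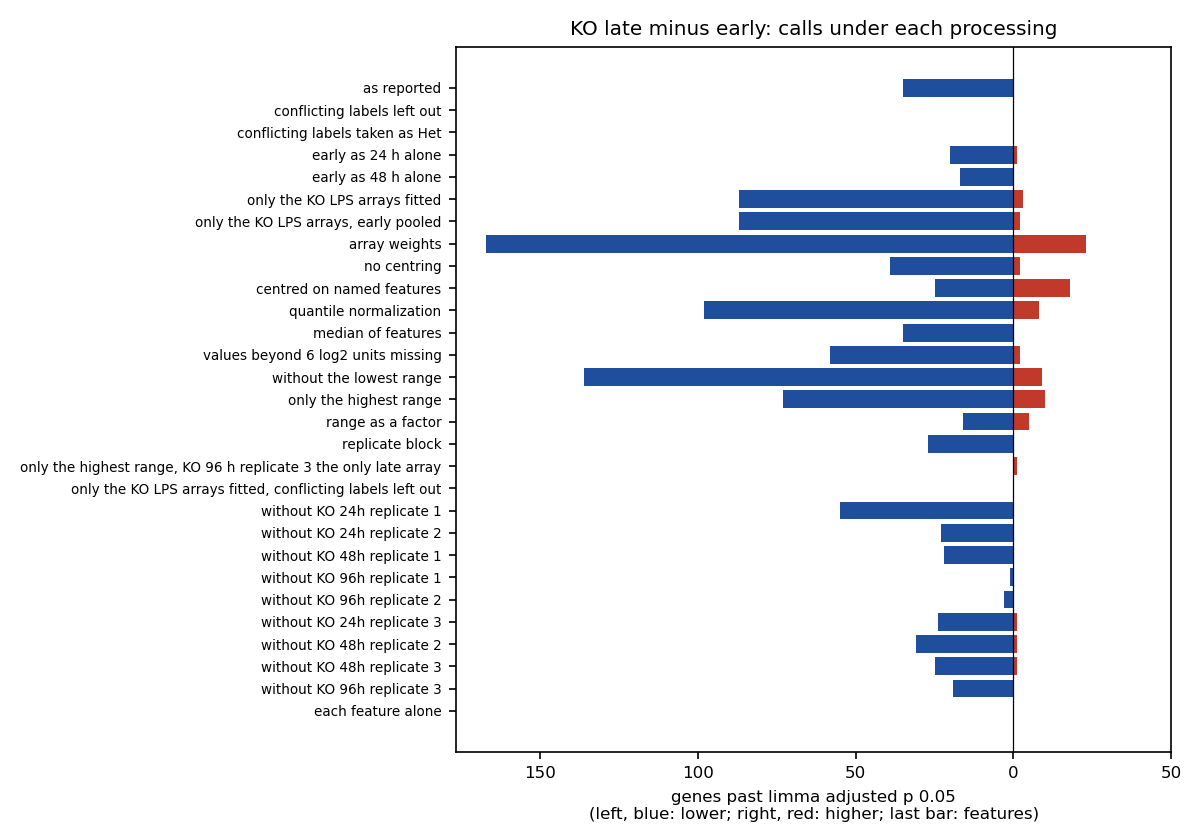
Number of genes past limma adjusted p 0.05 in KO late minus early (bars left of 0, lower; right of 0, higher) as reported and under each other processing; the last bar counts features. Wherever more than 1 gene passed, lower calls (3 to 167) outnumber higher ones; the fits without the conflicting arrays, the fit with them as Het and the fit of single features have no bar.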

How the data were processed

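The deposited values are log2 ratios of B-cell over pool RNA, 1 column per array; per the labels, Cy5 carried the B cells and Cy3 the pool. Log base and direction are not stated: base 2 was taken from the range and Cy5 over Cy3 from the dyes, and every sign would turn if the ratio ran the other way. Which scanner, background correction and normalization were used is not given in the sources used here. Each array was centred on its median, and features with 1 symbol were averaged per gene. limma 3.58.1 (R 4.3.3) fitted all 23 mouse arrays with 1 mean for each genotype at each time, and the contrast was KO 96 h minus the mean of KO 24 and 48 h, with Benjamini-Hochberg adjustment over 331 genes. All arrays had 1 dye orientation, so a constant dye bias of a gene stays in its levels and cancels in differences. The procedure was tested on simulated data with independent normal noise for each gene. The simulation held no shifted array, outlying array or wrong genotype label, so it could not test how these affect the calls. The members, gene lists, motifs and alternatives were chosen with earlier results of these data known. Genes were named by a rule: the 15 largest falls, the 8 smallest p among higher genes, Socs2 and members of the lists; others in the text (Hnrnpd, Psmd1, Eif2s2, Sod1, Ercc1, Aprt, Pa2g4, Ripk3, Ints7, Entpd1, Trp53inp1) were picked after their values were seen. The number of arrays limits the precision.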

Additional observations from a re-analysis of the deposited data

Results flagged for a closer look

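Socs2 differed between the genotypes in its late minus early change, by -3.58 (KO minus Het, log2; limma adjusted p = 0.00133): all 3 late KO arrays lay below all early KO arrays and all 4 late Het arrays above all early Het arrays.

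Ercc1, a called gene, had 1 early KO array far from the other 5: KO 24 h replicate 1 read -0.43, against 0.20 to 0.38 on the others. The limit used, Dixon's at 95%, is passed by chance in about 1 of 20 groups.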

How the results depend on the processing

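All 35 differences stayed below 0 in all 28 other fits, and none of the 35 passed in every one. The number of genes past the threshold (35 in the main fit) was 0 without the conflicting arrays (50 at an unadjusted p under 0.05), 0 with them taken as Het (58), 0 with only the other KO LPS arrays fitted, and 0 of 12292 features each tested alone (1908 at an unadjusted p under 0.05). It was 21 with 24 h alone as early, 17 with 48 h alone, 90 with only the KO LPS arrays fitted, 89 with their early arrays as 1 group, 190 with array weights, 41 with no centring, 43 centred on named features, 106 with quantile-normalized arrays, 60 with values beyond 6 units set missing, 145 without the lowest range of database numbers, 83 in the highest range only, 21 with the range as a factor, and 1, higher, with KO 96 h replicate 3 the only late array. Leaving out 1 array gave 1 to 55 genes. The higher calls were most, 23, under array weights.

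In the same order, list members past the threshold (20 of 106) were 0, 0, 0 and 0, then 12, 12, 38, 37 and 63, 44 after quantile normalization, 49 without the lowest range, 35 in the highest range, 12 with the range as a factor, 0 with 1 late array, and 1 to 27 leaving out 1 array. Of the 35, 0 passed in each of the first 4, 20 and 15 with 1 early time, 16 with the range as a factor, 0 with 1 late array, and 1 to 35 leaving out 1 array. Of the 14 replication genes (7 in the main fit) 0 passed in the first 4, 11 under array weights, quantile normalization, missing extreme values and without the lowest range, 3 with the range as a factor, 0 with 1 late array, and 0 to 9 leaving out 1 array. Of the 15 MYC genes (7 in the main fit) 0 passed in the first 4, 4 with 24 h alone, 13 with array weights and without the lowest range, 11 after quantile normalization, 4 with the range as a factor, 0 with 1 late array, and 1 to 9 leaving out 1 array.

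Genes past the genotype difference (1) were 2 with conflicting arrays as Het, 4 with only LPS arrays, 9 with array weights, 2 with no centring, 3 centred on named features, 5 after quantile normalization, 3 with extreme values missing, 6 without the lowest range, 6 in the highest range, 3 with the range as a factor, 3 with the replicate block, and 1 to 4 leaving out 1 array. The 48 h minus 24 h count (0) was 2 with only KO LPS arrays, 22 with array weights, 8 with no centring, 13 centred on named features, 10 after quantile normalization and 9 with the range as a factor. Bank1 turned to 0.57 when centred on named features. The causes were not tested, beyond fewer arrays where arrays were left out. The added alternatives, 1 late array in the highest range and the KO LPS arrays without the conflicting ones, were chosen after seeing the data.

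Replicate numbers did not pair the arrays: 4 of 9 same-number pairs had a correlation over 0.1, from -0.50 to 0.16, and 3 of 9 arrays correlated best with their own number. With the replicate block, 27 genes passed, 26 of them among the 35.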

Other observations

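Features that carried no single gene symbol had differences of the other sign from the named ones: the median late minus early difference was 0.14 over 11733 such features and -0.51 over the 559 named ones, on arrays centred on all features. Of the genes with all 3 late KO arrays above all 6 early ones, the others beside Slpi, Krr1, Abcb1b and Entpd1 were Alcam (1.02), an adhesion molecule gene, Mt2 (1.16), a metallothionein gene, and Sgk1 (1.71), a kinase gene. None of them passed limma's test in the main fit, with adjusted p from 0.297 to 0.367, and they were named after their values were seen. Among the other fits, Alcam passed as higher in 6 and Sgk1 in 3.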
